A study of Solanum lycopersicum with 3 samples.

Results

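ENTIRE (IAA9), IAA8 and IAA27 form a group of large Aux/IAA proteins, the repressors of the auxin response. Their transcripts were measured in leaf primordia of the tomato (Solanum lycopersicum) mutant slmp. The 3 genes were chosen by locus identifier, Solyc04g076850 for ENTIRE, Solyc12g007230 for IAA8 and Solyc03g120500 for IAA27. All 3 were among the 21717 loci of the deposited table. All libraries belonged to 1 group. Each came from a pool of 15 primordia of leaf 5, collected at the P5 stage (P counts the plastochrons since a leaf was initiated) from plants carrying the slmp-1 allele. The growth chamber gave 18 h light and 6 h dark, and the seedlings had received a mock spray of distilled water 1 h earlier. There were 3 replicate libraries. The labels do not say whether the pools came from separate plantings, so the spread between libraries may be partly technical. No wild-type or auxin-treated library was analysed here, so the values describe the mutant alone.

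Aux/IAA proteins bind auxin response factors and hold their target genes silent by recruiting TOPLESS co-repressors. Auxin joins them to TIR1/AFB receptors, which leads to their degradation and frees the response factors. In tomato, loss of ENTIRE turns the compound leaf into a simpler one, because blade grows where the spaces between leaflets would be. SlMP, the tomato counterpart of MONOPTEROS, is an activating auxin response factor. IAA8 and IAA27 are the closest relatives of ENTIRE, and silencing of IAA27 is known to change auxin sensitivity and chlorophyll content.

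The libraries were read from the 3′ ends of polyadenylated RNA (QuantSeq). A transcript gives about 1 fragment whatever its length, so levels of different genes were compared without division by length. Reads assigned to no locus are not in these levels. Whether such losses differ between genes was not tested. A level is the scaled value that the authors deposited. In each library all values were whole multiples of 1 step, and steps were taken as reads for counting error. The loci summed to between 2499843 and 2746410 steps per library. Intervals below are exact 95% Poisson intervals on these steps and cover counting error only. As a check of the tissue, 11 of 11 loci recorded for the photosynthetic machinery of leaves reached at least 10 in every library, with a median mean of 1711. Of 3 loci recorded for compound-leaf regulators, 2 reached it. Among all loci 68.7% did, so that count says little about the tissue. Of 3 ripe-fruit loci, 2 were in the table, with means of 0.948 and 1.64, and neither reached 10 in every library. Of 5 floral-organ loci 1 was analysed, and it was detected, with a mean of 126.8. Detection alone therefore did not tell leaf from flower here. Libraries of whole primordia mix cell types, so fewer cells expressing a gene and less RNA per cell cannot be told apart.

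ENTIRE was by far the most abundant of the 3 transcripts, and all 3 were expressed in every library. A value of at least 10 in every library was reached by 3 of 3 members, against 68.7% of all loci. With so high a background, detection says little about the members. ENTIRE stood at 914.6 in replicate 1, 1042 in replicate 2 and 922.3 in replicate 3. Replicate 2 was the highest, and the other two libraries lay close together. The mean was 959.6 ± 71.3 (SD, n = 3), with 447 of the 21717 loci higher, which put ENTIRE at percentile 97.9 of the table. Its mean was 28.8 times the mean level of the median locus, which was 33.3. Only 31 loci were at 0 in every library, and several recorded loci were absent from the table. Places and medians therefore hold for the loci in the table. Whether unexpressed loci had been left out of it was not tested. The intervals were 857.8 to 974.2, 978.2 to 1108 and 861.6 to 986.2 in replicates 1, 2 and 3. Those of replicates 1 and 2 did not overlap, whereas those of replicates 2 and 3 did.

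IAA27 was expressed at about an order of magnitude less. Its values were 106.2, 97.6 and 123.9 in replicates 1, 2 and 3, from 112, 94 and 115 steps. Replicate 3 was the highest and replicate 2 the lowest, but all 3 counting intervals overlapped, spanning 78.9 to 148.7. The mean of 109.2 ± 13.4 (SD, n = 3) lay at percentile 79.4 of all loci, or 3.28 times the median locus.

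IAA8 was the lowest of the 3. Its values were 88.1, 69.6 and 72.2 in replicates 1, 2 and 3, from 93, 67 and 67 steps. Here replicate 1 was the highest, and the intervals again overlapped, from 53.9 to 108.0 in all. The mean of 76.6 ± 10.05 (SD, n = 3) was at percentile 71.6, or 2.30 times the median locus. Each member thus had its highest value in a different library.

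**Figure D1:**
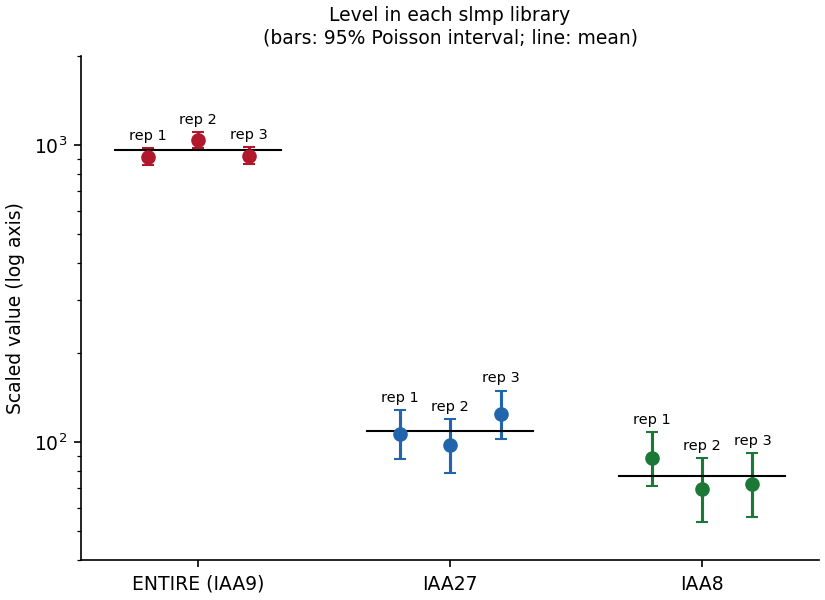
Scaled value (log axis) of each member in the 3 slmp libraries, with 95% Poisson intervals as bars and the mean as a line. ENTIRE lies between 914.6 and 1042, while IAA27 (97.6 to 123.9) and IAA8 (69.6 to 88.1) lie close together without overlap of their values.

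**Figure D2:**
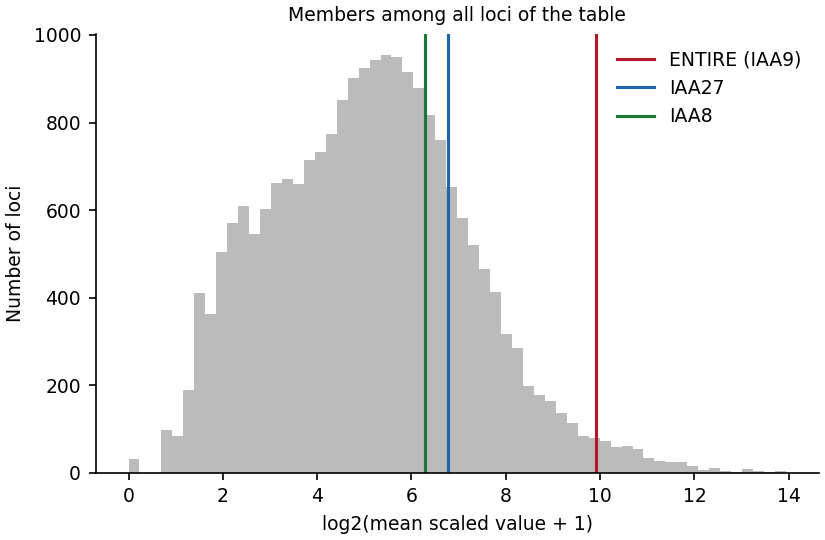
Histogram of log2(mean scaled value + 1) over the 21717 loci, with a vertical line for each member. IAA8 and IAA27 fall just right of the peak, at percentiles 71.6 and 79.4, and ENTIRE in the upper tail, at percentile 97.9.

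The order ENTIRE, IAA27, IAA8 held in 3 of 3 libraries. ENTIRE exceeded IAA27 by 8.62-fold in replicate 1, 10.7-fold in replicate 2 and 7.44-fold in replicate 3. On the log2(value + 1) scale, where a pseudocount of 1 is added, the mean difference was 3.13 ± 0.26 (SD, n = 3). ENTIRE exceeded IAA8 by 10.4-fold, 15.0-fold and 12.8-fold in replicates 1, 2 and 3, a mean log2 difference of 3.63 ± 0.26. Both differences were more than 10 times their SD, and both were widest in replicate 2. IAA27 exceeded IAA8 by 1.20-fold, 1.40-fold and 1.72-fold, a mean log2 difference of 0.51 ± 0.25. That difference was about 2 times its SD. The Poisson intervals of IAA27 and IAA8 overlapped in replicates 1 and 2 and were apart in replicate 3, at 102.3 to 148.7 against 55.9 to 91.7. An exact two-sided sign permutation test over the 3 libraries gave p = 0.25 for each of the 3 pairs, and p = 0.25 after Benjamini-Hochberg adjustment over them. This is the smallest p that this test can give with 3 libraries, so it cannot pass a threshold of 0.05 whatever the size of the difference.

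ENTIRE made up most of the group's transcripts. Of the summed signal of the 3 genes, it held 82.5%, 86.2% and 82.5% in replicates 1, 2 and 3, a mean of 83.7% ± 2.13 (SD, n = 3). The Wilson 95% intervals were 80.2% to 84.5%, 84.1% to 88.0% and 80.0% to 84.7%. That of replicate 2 overlapped the others only narrowly. Overlap does not show that the shares were equal, and a difference between libraries was not tested. IAA27 held 9.58% ± 1.502 and IAA8 6.72% ± 1.12. The sum of the 3 genes was 1109, 1209 and 1118 scaled units in replicates 1, 2 and 3. That was 0.0431% ± 0.00190 (SD, n = 3) of the scaled total over all loci.

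The members were next placed among other genes of the auxin response. The loci compared were recorded under family names from general knowledge of tomato locus numbering, and no source used here pairs these identifiers with names, so they are given as lists. Of 18 other Aux/IAA loci recorded, 17 were in the table. The members and these 17 gave 20 loci, of which ENTIRE was the highest, at 5.55 times the mean of the next locus. That second locus had values of 189.6, 134.0 and 195.0 in replicates 1, 2 and 3, all below the lowest value of ENTIRE. In this order IAA27 was at place 4 of the 20 and IAA8 at place 7. Neither stood apart from its neighbours. The locus at place 3, with 116.9 ± 72.4 (SD, n = 3), and that at place 5, with 99.7 ± 9.84, both overlapped the range of IAA27. The locus at place 6, with 91.2 ± 35.6, and that at place 8, with 57.6 ± 17.0, both overlapped that of IAA8. The other 17 had a median of 20.6, below the 33.3 of all loci, and a lowest mean of 2.97. Of the 17, 9 (52.9%) reached 10 in every library, against 68.7% of all loci. ENTIRE alone took 48.8%, 61.0% and 46.1% of the summed signal of the 20 loci in replicates 1, 2 and 3. The 3 members together took 59.2%, 70.8% and 55.9%, so the share was higher in replicate 2 than in either other library.

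Activating auxin response factors are partners that Aux/IAA proteins restrain. Of 8 recorded loci of the activating class, 6 were in the table and 5 were detected in every library, with a median level of 117.5 and a highest mean of 254.4 ± 56.8 (SD, n = 3). Among all loci 68.7% were detected, so this count and those below say little by themselves. ENTIRE exceeded the sum of these 6 loci in every library, by 1.35-fold, 1.23-fold and 1.33-fold in replicates 1, 2 and 3. The mean ratio was 1.30 ± 0.0663 (SD, n = 3). SlMP was not analysed as a single gene, since none of the sources ties that name to an identifier. Whether SlMP was among the 6 loci summed, or among the recorded loci absent from the table, was therefore not determined. Reads from the 3′ end that lie outside a lesion would not test it. Of 14 recorded loci of the other classes, 13 were in the table and all 13 were detected. Their median was 93.7 and their highest mean was 329.6, so that ENTIRE was 2.91 times the highest. Summed, these 13 exceeded ENTIRE, whose ratio to them was 0.595 ± 0.0485. Of 6 loci recorded as TOPLESS co-repressors, which carry out the repression, 5 were in the table and detected, with means from 63.7 to 283.5. The ratio of ENTIRE to their sum was 1.32 ± 0.115. None of the loci in these 4 lists had a mean above that of ENTIRE.

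**Figure D3:**
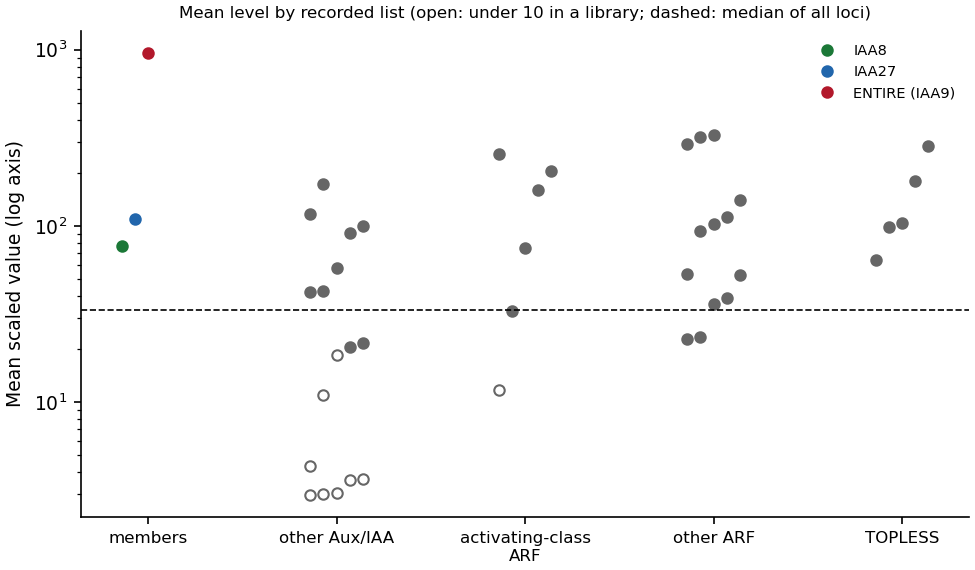
Mean scaled value (log axis) of each locus in 5 lists (ARF, auxin response factor), with open circles for loci under 10 in at least 1 library and a dashed line at the median of all loci, 33.3. ENTIRE, at 959.6, lies above every other point, and the highest of the others is an auxin response factor locus at 329.6.

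In none of the libraries did all 3 members deviate in the same direction. Relative to its own mean on the log2 scale, ENTIRE deviated by -0.07, 0.12 and -0.05 in replicates 1, 2 and 3. IAA27 deviated by -0.03, -0.15 and 0.19, and IAA8 by 0.21, -0.13 and -0.08. By value, ENTIRE was highest in the library in which IAA27 and IAA8 were lowest. For IAA8 that low was a tie in steps, with 67 in replicate 2 and 67 in replicate 3. The counting intervals of IAA27 overlapped between all libraries, as did those of IAA8. The order of libraries for these genes is therefore not resolved. Among the 14910 loci detected in every library, 36.2% were highest and 33.3% were lowest in replicate 2, so neither position is unusual. The other recorded Aux/IAA loci lay low in that library. Of the 9 detected, 8 had their lowest value there, and their median deviation was -0.42. Replicate 2 also held less of the photosynthesis transcripts. The 11 recorded loci summed to 27982, 16697 and 35961 in replicates 1, 2 and 3, and 11 of 11 were lowest in replicate 2. The 3 compound-leaf regulators summed to 370.6, 616.9 and 394.4, but most of that sum came from 1 locus with a mean of 382.4, and 2 of the 3 were highest and 1 lowest in replicate 2. The part of these differences between pools in the members' values was not tested. Without replicate 2, the log2 difference between ENTIRE and IAA27 was 2.99 and that between ENTIRE and IAA8 was 3.51, close to the values over all libraries. The ratio of ENTIRE to the sum of the other 17 Aux/IAA loci was 1.20, 2.09 and 1.05 in replicates 1, 2 and 3, so its size depends on that library.

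**Figure D4:**
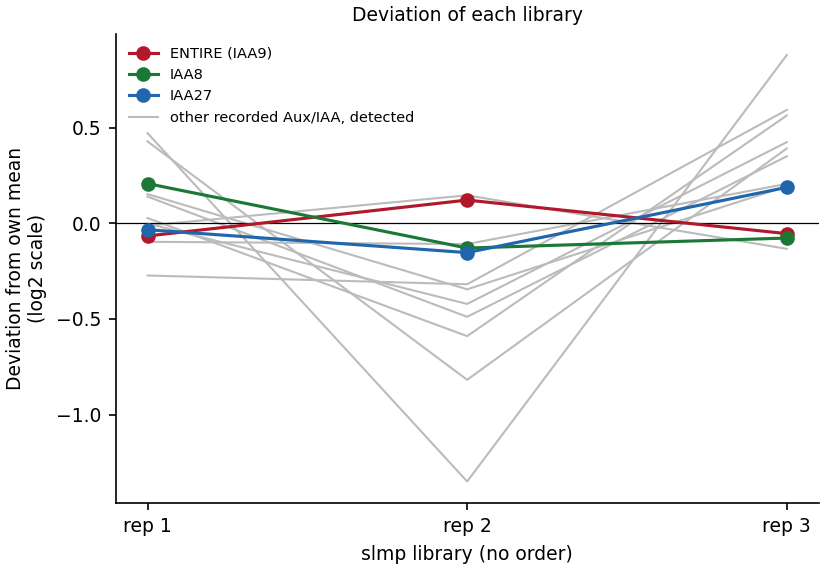
Deviation of log2(value + 1) from each gene's own mean in the 3 slmp libraries, with coloured lines for the members and grey lines for the 9 other detected Aux/IAA loci. In replicate 2 ENTIRE lies at 0.12 and IAA27 and IAA8 at -0.15 and -0.13, while 8 of the 9 grey lines have their lowest point there.

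Spread between libraries was below that of the median locus of like level for all 3 members. The SD of log2(value + 1) was 0.10 for ENTIRE, where counting error alone would give about 0.05. It was 0.17 for IAA27 and 0.18 for IAA8, against 0.14 and 0.17 from counting error. The spread of IAA8 was thus 1.08 times counting error, which leaves little spread beyond counting error detectable at this depth. Detected loci within 0.5 log2 units of each level had a median SD of 0.23 around ENTIRE, 0.24 around IAA27 and 0.25 around IAA8. The members lay at percentiles 16.5, 32.2 and 30.7 of those loci. These placements rest on few libraries. ENTIRE moved to percentiles 26.7, 2.49 and 53.3 without replicates 1, 2 and 3. For IAA27 the corresponding percentiles were 52.3, 41.4 and 26.8, and for IAA8 they were 9.17, 48.3 and 63.4.

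**Figure D5:**
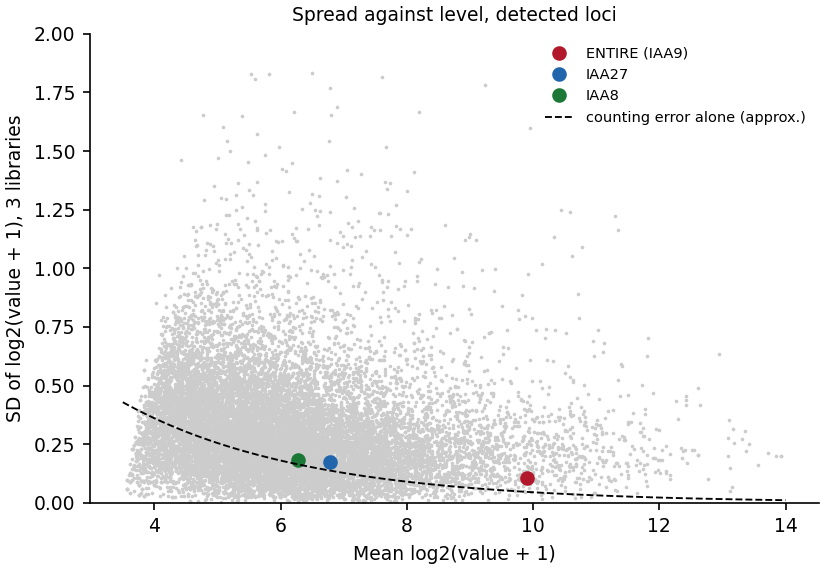
SD of log2(value + 1) over the 3 libraries against mean log2(value + 1) for the loci detected in every library, with the members coloured and a dashed curve for the approximate SD from counting error. The members lie at 0.10, 0.17 and 0.18, IAA8 and IAA27 near the curve and ENTIRE above it, and 4 loci above an SD of 2 fall outside the axis.

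Loci that lie beside the members in identifier order were examined, because reads of overlapping or adjoining genes can be credited to the wrong one. Only loci in the table could be examined, so any closer gene absent from it was not. The nearest loci listed on either side of ENTIRE had means of 12.6 and 53.4, and ENTIRE was 76.2 and 18.0 times as high. Those beside IAA27 had means of 77.9 and 38.7, and those beside IAA8 had 24.9 and 4.51. IAA27 was 1.40 and 2.82 times as high as its neighbours, and IAA8 3.08 and 17.0 times. Further out, a second locus beside IAA8 had a mean of 99.6, above that of IAA8 (ratio of IAA8 to it 0.769). A second locus beside ENTIRE had a mean of 441.6, and ENTIRE was 2.17 times as high. All other second loci had means below that of their member. In the RefSeq gene table of the assembly SLM_r2.1, 0 other genes overlapped IAA9, IAA8 or IAA27. That table places the 3 genes on chromosomes 4, 12 and 3, the chromosomes that the locus identifiers carry. It lists ENTIRE as a synonym of IAA9. It also gives IAA8 as a synonym of IAA15, and IAA6 as a synonym of IAA27, so a symbol alone does not always identify a gene of this family. Whether reads shared between similar members of the family were lost or misassigned was not tested.

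The detected locus whose values were most like those of each member was found by the root-mean-square difference of log2(value + 1) over the 3 libraries. For ENTIRE it was Solyc01g008110, at 877.7, 1040 and 921.3 in replicates 1, 2 and 3, a difference of 0.03. For IAA27 it was Solyc07g055050, at 109.0, 97.6 and 126.1, also a difference of 0.03. For IAA8 it was Solyc12g077590, at 87.2, 70.6 and 72.2, a difference of 0.02. With 14910 candidates and 3 libraries, likeness of this kind describes the values only.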

How the data were processed

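Bowtie2, HTSeq and DESeq2 are named, without versions, per the submitters' processing notes. For genome build, annotation and strand setting, nothing is given in the sources used here. What the authors deposited is, per the file headers, a table of 1 signal value per locus and library. Each value was a whole multiple of 1 step (0.948, 1.04 and 1.08 in replicates 1, 2 and 3, within 0.01 of a step), the form of read counts divided by 1 factor per library. No value of 1 step occurred, which was not explained, so no count model of differences was fitted. The Poisson and Wilson intervals and the counting errors did treat steps as reads and depend on that reading. The level that 3 steps give was 2.84, 3.12 and 3.23. The 3 summary rows of the counting program were left out of totals. The RefSeq gene table (41476 rows) matched 0 identifiers of the deposited table; the names of the 3 members were given with their identifiers and could be checked only by chromosome. No sequences were used here.

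Detection meant at least 10 in every library. Likeness and spread used log2(value + 1). Genes named were the 3 members and, for each, its 1 nearest detected locus. Alternatives were other scalings, pseudocounts, filters, windows and leaving out each replicate. The members and lists were chosen with earlier results of these data known. The calculations were tested on simulated data and used Python 3.11.15, numpy 2.4.6, pandas 2.3.3, SciPy 1.17.1 and matplotlib 3.10.9.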

Additional observations from a re-analysis of the deposited data

Results flagged for a closer look

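Summary rows of the table count reads left unassigned, and the values above do not use them. Of the scaled total over loci and summary rows, reads without a feature made up 22.2% ± 0.825 (SD, n = 3), and at least 21.2% in every library. Those with low alignment quality made up 23.3% ± 2.12, and at least 21.4%. Those fitting several loci made up 2.58% ± 0.143, and at least 2.43%. Whether any of them came from ENTIRE, IAA8 or IAA27 was not tested.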

How the results depend on the processing

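Of 131 combinations of a value and a setting, 117 were labelled unchanged and 14 moved, by a tolerance that depended on the kind of value. None reversed. Part of this count was fixed in advance. Rescaling a whole library leaves shares unchanged and differences between members nearly unchanged, so the scaling settings could not test these. The permutation p of a difference could not pass the threshold in any setting, so it could not change side. Measured against detected loci alone, which are higher by construction, the level percentiles were 97.0 for ENTIRE, 70.0 for IAA27 and 58.7 for IAA8. With equal library totals the spread percentiles were 30.4 for IAA27 and 37.4 for IAA8; the cause was not tested. With 1 replicate left out in turn, the spread percentiles ranged from 2.49 to 53.3 for ENTIRE, 26.8 to 52.3 for IAA27 and 9.17 to 63.4 for IAA8, where fewer libraries set each SD. Differences between members kept their sign under every scaling, pseudocount and left-out replicate tried. The order of the members was the same in every library, so none of these settings could have changed a sign. With 2 libraries the exact permutation p was 0.5. The difference between IAA27 and IAA8 then ranged from 0.37 to 0.63 on the log2 scale. No paired analysis was possible because there is no second group whose libraries could be paired with these; differences between members were taken within each library. IAA8 rests on 67 to 93 steps per library, which limits how small a difference could be seen.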
